A study of Mus musculus with 6 samples.

Results

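The group described here is a set of 563 piRNA microarray probes that were higher in the testes of 30-day-old male mice whose mothers had drunk water with microcystin-LR (MC-LR). The probes were selected on the measured signals themselves. Of the 41069 piRNA probes of the array, 10489 were well above background on all 6 arrays and carried no outlier flag, and the 200 with the highest mean in control testes were left out. Among the remaining 10289 probes, a member was one whose lowest MC-LR value lay above its highest control value and whose group means differed by at least 1 on the log2 scale, which is at least 2-fold. The 563 are 5.47% of those probes. Values are log2 processed signals minus the median of the 10489 probes on the same array, so 0 is the signal of a middling well-detected probe. A signal also depends on its probe, so signals of different probes are not read as amounts of RNA. Since these values chose the members, their levels and differences are a description and carry no test.

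The MC-LR group was 3 male offspring of dams given 10 μg/L MC-LR in drinking water between gestation day 12 and postnatal day 21. The control group was 3 male offspring of dams given 0 μg/L over the same time. The labels state that the 3 animals of a group had different mothers, and each array held the total RNA of 1 animal's testes, taken at 30 days of age. The strain and the number of litter mates are not given in the sources used here. The dams were dosed during gestation and nursing, and dosing had ended before the tissue was taken. The protocols in the labels speak of cRNA and do not say how small RNAs were labelled or whether they were parted from longer RNAs first. The array carried probes for piRNAs and control probes but none for marker genes, so the tissue label was not checked against markers.

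PIWI-interacting RNAs (piRNAs) are small RNAs of germ cells that guide PIWI proteins to transposon transcripts and other targets. In the mouse testis, a large class of them is made by spermatocytes from the pachytene stage of meiosis onward, and another class is made earlier in development. Long single-stranded precursors from defined genomic clusters are cut into many piRNAs, so probes for neighbouring piRNAs of a cluster can share 1 precursor. MC-LR is a cyclic peptide of cyanobacteria that inhibits serine/threonine protein phosphatases. In whole testis RNA, a change in the share of germ cells that make a piRNA and a change in the RNA per cell cannot be told apart.

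In the files each probe has the array maker's identifier alone. No piRNA name, sequence or cluster is paired with it there, so no sequence is shown. Identifiers are given for the 2 members with the largest differences, and other members are described by their rank among the 563. On MC-LR arrays 1, 2 and 3 (numbered by replicate) 20652, 14694 and 18067 piRNA probes were well above background, against 16402, 11523 and 14169 on control arrays 1, 2 and 3. Replicate 1 of both groups came from 1 scan and so from 1 slide, as did replicate 3 of both groups, while the replicate 2 arrays were scanned alone and on different days. Control arrays lay at slide position 3, whereas MC-LR replicates 1 and 3 lay at position 4 and MC-LR replicate 2 at position 1. Position and group therefore cannot be told apart.

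Most members differed by between 2-fold and 3-fold. The difference of means had a median of 1.30 (2.47-fold), a middle range of 1.14 to 1.56 and a highest value of 4.00. It reached 1.5 for 164 members and 2 for 15 of them, and it passed 2.5 for the 2 members at the top of the ranking. Across the 10289 probes from which they were drawn, the median difference was -0.13 and 40.1% had the higher mean in MC-LR testes. The members are therefore the upper tail of a distribution centred slightly below 0 on this scale.

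The probe ASPI084231P stood furthest from its control level. Its values were 6.37, 5.51 and 6.21 in MC-LR replicates 1, 2 and 3, against 1.86, 2.53 and 1.69 in control replicates 1, 2 and 3. In intensity units these were 10179, 5442 and 8311 on the MC-LR arrays, against 352, 469.8 and 282 on the control arrays. Every MC-LR array was thus far above every control array, with a mean of 6.03 ± 0.46 (SD, n = 3) against 2.03 ± 0.44, a 16.0-fold difference. The gap between the lowest MC-LR and the highest control value was 2.98, the widest of any member.

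The second-ranked member, ASPI029363P, was 10.1-fold higher. Its values were 5.43, 3.67 and 4.96 in MC-LR replicates 1 to 3, against 1.28, 1.01 and 1.75 in the controls. The MC-LR animals varied more than the controls (SD 0.91 against 0.37, n = 3 each), and replicate 2 lay well below the other two. The third-ranked member had the same order of MC-LR animals, with 7.87, 6.36 and 7.42 in the MC-LR animals, against 4.20, 5.01 and 4.94 in controls. It was 5.65-fold higher, with 9811 to 28791 intensity units on MC-LR arrays and 1780.4 to 2683 on control arrays.

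The members ranked 4 to 10 had differences between 2.09 and 2.30 and resembled each other in how the single animals were ordered. In each of these 7 probes MC-LR replicate 1 was the highest of its group and replicate 3 the lowest, and among controls replicate 1 was the highest and replicate 2 the lowest. The fourth-ranked member, for example, had 4.05, 3.01 and 2.29 in MC-LR replicates 1 to 3, against 1.79, -0.17 and 0.83 in the controls. For the ninth-ranked member the values were 2.29, 1.37 and 0.93 in MC-LR animals, against 0.40, -1.61 and -0.48 in controls. The spread between animals was wide on both sides (SD 0.65 to 0.88 in MC-LR animals and 0.56 to 1.01 in controls), and the gap between the groups was 0.49 to 1.17. For comparison, the median SD over the 563 members was 0.51 in MC-LR animals and 0.29 in controls.

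A tighter separation was found for the member ranked 12 by its difference. Its control values were -0.63, -0.62 and -0.65, the closest agreement among the members described singly, and its MC-LR values were 2.09, 1.22 and 1.02. The gap of 1.64 was the third widest of the set. Gaps of at least 1 were found for 46 members, so that in these any MC-LR animal was at least 2-fold above any control animal. For 63 members the gap was under 0.25, and the narrowest was 0.02.

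The 5 members with the highest control means lay near the upper end of the array. The brightest had 87811, 72267 and 77745.0 intensity units in MC-LR replicates 1 to 3, against 9950.02, 32615 and 23688 in the controls. On the log2 scale these were 9.48, 9.24 and 9.44 in MC-LR animals, against 6.68, 8.65 and 8.08 in controls. The MC-LR animals were close together and control replicate 1 was far below the other controls, and the difference was 2.99-fold. Without control replicate 1 the log2 difference was 1.02, against 1.58 with it. Of the other 4 bright members, the control animals also spread more than the MC-LR animals in each, and control replicate 1 was the lowest control. Their differences were 1.04 to 1.58. The fifth of them, ranked 169 by difference, had the closest controls of the 5, at 6.57, 7.13 and 6.89, against 8.50, 8.31 and 8.24 in MC-LR animals.

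The lower limit of 1 cut through a continuous range. The 3 members just inside it had differences of 1.002, 1.002 and 1.003 and gaps of 0.37, 0.51 and 0.17. The 3 separated probes just outside it had differences of 0.999, 0.996 and 0.996 and gaps of 0.14, 0.56 and 0.29. A further 1122 probes were separated in the same direction with a difference under 1, and 44 probes differed by at least 1 but had overlapping groups. Separation with the higher values in MC-LR animals occurred in 1685 of 10289 probes (16.4%), and with both conditions in 563 (5.47%). Separation with the lower values in MC-LR animals occurred in 2093 probes (20.3%), and with a difference of at most -1 in 349 of them (3.39%). On this scale small separated differences thus ran downward more often, and those of at least 2-fold ran upward more often.

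This balance moved with the scaling between arrays. The numbers that met the rule upward and downward were 563 and 349 with the median of the well-detected probes. They were 736 and 218 with their 75th percentile, 646 and 257 with quantile normalization, 664 and 391 in the authors' deposited table, 405 and 568 with the 75th percentile of all piRNA probes, and 1375 and 53 without scaling. The median difference of the 10289 probes was -0.003 with the 75th percentile of the well-detected probes, -0.27 with that of all probes and 0.29 without scaling. The mean difference of every one of the 563 members was above 0 under each of these, which their choice by large differences largely ensured. Under the 75th percentile of all probes, 545 of the 563 were still separated.

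Array by array, the members' median was 1.45, 0.60 and 0.96 in MC-LR replicates 1, 2 and 3, against -0.17, -0.53 and -0.29 in control replicates 1, 2 and 3. In intensity units the medians were 336, 180.5 and 217 on the MC-LR arrays, against 86.2, 56.5 and 71.6 on the control arrays. All 3 MC-LR medians lay above all 3 control medians, as the rule required of each probe. The median member thus sat above the middle of the well-detected range in MC-LR animals and below it in controls.

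The 3 MC-LR animals did not share the increase equally. Relative to each probe's control mean, the median member was 1.77 higher in MC-LR replicate 1, 1.29 higher in replicate 3 and 0.89 higher in replicate 2. Replicate 1 was the highest of the MC-LR animals for 496 of the 563 members (88.1%) and replicate 2 the lowest for 456 (81.0%). Among the other 9726 probes from which the rule could choose, those shares were 26.4% and 29.3%. Among the controls, replicate 2 was the lowest for 361 members (64.1%), against 38.2% of the other probes. It was also the lowest control for 70.8% of the probes that met the rule downward, so this was not particular to the members. Of the 9 pairs of 1 MC-LR and 1 control array, the median difference ran from 0.77 for MC-LR replicate 2 against control replicate 1 to 2.00 for MC-LR replicate 1 against control replicate 2. The arrays of this last pair were the 2 without multiplicative detrending in the scanner software. Between the 4 detrended arrays, MC-LR replicates 2 and 3 against control replicates 1 and 3, the medians of the 4 pairs were 0.77 to 1.23. The part of detrending in these values was not tested. A difference of at least 1 was met by 549 members between the replicate 1 arrays, which came from 1 scan. It was met by 457 between the replicate 3 arrays, also from 1 scan, by 300 between the replicate 2 arrays, and by as few as 166 between MC-LR replicate 2 and control replicate 1.

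MC-LR replicate 2 likewise departed least from the controls among the 349 probes that met the mirrored rule. There it was the highest MC-LR value, and so nearest to the controls, in 297 probes (85.1%). Relative to the control mean those probes were lower by a median of 1.41 in replicate 1, 1.34 in replicate 3 and 0.89 in replicate 2. Their medians were -0.25, 0.40 and -0.05 in MC-LR replicates 1 to 3, against 1.71, 1.24 and 1.37 in controls. The smaller departure of MC-LR replicate 2 was thus seen in both directions. Both sets were chosen from the values of the same arrays, so the second is no independent support for the first. MC-LR replicate 2 was also the 1 array at slide position 1. It had the fewest probes well above background in its group, while replicate 1 had the most. The part of these in the result was not tested.

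Sorting the members by the order of the 3 MC-LR animals gave 2 large classes. In 401 members replicate 1 was highest and replicate 2 lowest, with medians of 1.42, 0.40 and 0.89 in MC-LR replicates 1 to 3, against -0.22, -0.53 and -0.39 in controls. In 95 members replicate 1 was highest and replicate 3 lowest, with medians of 2.29, 1.56 and 1.25, against 0.59, -0.47 and 0.10. The second class held 10 of the 15 members with a difference of at least 2, and 74 of its 95 members (77.9%) also shared the control order of replicate 1, then 3, then 2. In the first class 194 of 401 (48.4%) had that control order. The 2 classes were formed after the values were seen, and no test was made between them. The remaining 67 members included 55 in which MC-LR replicate 3 was highest and replicate 2 lowest.

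Within the MC-LR group the members were more variable than other probes. Their SD over the 3 MC-LR animals had a median of 0.51, against 0.29 over the 3 controls, and it was the larger of the 2 SDs in 414 members (73.5%). Over the 10289 probes the medians were 0.26 in MC-LR animals and 0.28 in controls, and the MC-LR SD was the larger in 46.4%. In the 349 lower probes both medians were near 0.36, at 0.356 in MC-LR animals and 0.354 in controls. The rule used these same values, so this excess is a description of the set.

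Members occurred from dim to bright probes. A member had to be well above background on every array, and on control replicate 2 the lowest member lay at -1.64. The increase itself also raises a member's mean. The part of these limits in the numbers per class was not tested. The 10289 probes were parted into 5 classes by their mean over the 6 arrays. The classes held 19, 97, 173, 142 and 132 members from the dimmest to the brightest, or 0.923%, 4.71%, 8.41%, 6.90% and 6.42% of their probes. The 349 lower probes were more frequent in the bright classes, with 49, 48, 49, 89 and 114 in the same order. These were 2.38%, 2.33%, 2.38%, 4.32% and 5.54% of the probes of each class. The members' median difference was larger in the brighter classes, at 1.15, 1.15, 1.29, 1.39 and 1.54. The SD of the difference over all probes of a class was also larger there, at 0.46, 0.55, 0.62, 0.68 and 0.68.

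Signal over background was smallest on the control side of the dimmer members. The dimmest piRNA spot flagged well above background had 16.5, 22.5 and 18.5 intensity units on MC-LR arrays 1 to 3, against 11.9, 26.0 and 15.6 on the control arrays. On control replicate 2, where this limit was highest, 261 of the 563 members lay within 2-fold of it. The corresponding numbers were 18 and 34 on control replicates 1 and 3, and 0, 2 and 0 on MC-LR replicates 1 to 3. Every member was above the limit on each array, so none of the differences is a lower bound. No piRNA spot was saturated.

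Members were scattered over the array and over the identifiers. In 4 bands of spot rows they made up 5.75%, 5.80%, 5.74% and 4.52% of the probes the rule could take, and in 5 bands of spot columns 4.55% to 6.50%. Counted around each member in turn, 1319 such probes lay next to a member on the grid, and 70 of them (5.31%) were members, against 5.47% overall. By identifier, the 4 full bands of 100000 numbers held 5.06% to 5.76%, and the last short band held 11 of 139 (7.91%). The probe with the next higher identifier was also a member in 35 of 563 cases (6.22%). Neither position nor identifier entered the rule.

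The local background around the spots, which the rule also did not use directly, was compared directly. Around member spots it averaged 21.2, 21.8 and 21.5 units on MC-LR arrays 1 to 3, against 22.6, 21.3 and 20.8 on the control arrays. The log2 difference between member spots and the other 9726 spots was 0.003 ± 0.015 (SD, n = 3) on MC-LR arrays and -0.005 ± 0.007 on control arrays. The difference between these 2 means was smaller than the SD on the MC-LR arrays. The exact permutation test, two-sided, gave p = 0.5, but with 3 against 3 it cannot go below 0.1, so it could not have passed a threshold of 0.05.

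In the authors' deposited log2 table, which rests on the same 6 arrays, all 563 members were present. Their median values there were 7.86, 6.87 and 7.38 in MC-LR replicates 1 to 3, against 6.09, 5.74 and 5.96 in controls. Groups stayed apart in 560 members, and 548 also differed by at least 1, with a median difference of 1.42. In the median pixel signal of each spot, taken without background subtraction, each of the 563 was again higher in the MC-LR mean. There the median difference was 0.95, the groups were separated in 530 members, and 266 differed by at least 1. This measure differs from the processed signal in the spot statistic, the detrending and the background together. Among the 5 members with the highest control mean the differences were larger there, at 1.27 to 1.93, against 1.04 to 1.58 in the processed signal.

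A moderated test across 16064 probes (limma, Benjamini-Hochberg adjusted p under 0.05) called 644 probes higher in MC-LR testes, or 4.01%, and 235 lower. Of the 563 members 266 were among the 644 (47.2%), and 297 were not. The 16064 probes had to be well above background on at least 3 arrays, so a probe could enter through the 3 MC-LR arrays alone. Among the 10489 unflagged probes well above background on all 6 arrays, limma called 586 higher and 417 lower. With slide as a block, a fit that rests on replicates 1 and 3, limma called 3347 of the 16064 probes higher, all 563 members among them. With scan day as a block, it called 459 of the 16064 probes higher, 180 members among them. Within single scan days a group had only 1 array, so nothing is read from the calls of those fits. The split into 266 and 297 thus moved between fits, and why was not tested. The rule used the same contrast, so nothing is read from these counts. Of the 378 probes called higher that were no members, 360 were not well above background on all 6 arrays. Another 17 had overlapping groups or a difference under 1, and 1 was among the 200 brightest. The lowest adjusted p over all probes by limma was 0.027. Leaving out MC-LR replicate 1 or 3, or control replicate 1 or 3, left 0 calls by limma among 1677 to 2723 probes higher at an unadjusted p under 0.05. Leaving out control replicate 2 left 4 called higher, of which 1 was a member. Leaving out MC-LR replicate 2 gave 801, of which 411 were members.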

How the data were processed

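Total RNA from 6 mouse testes was labelled with Cy3 and hybridised to 1-colour Agilent piRNA arrays. Feature Extraction 11.0.1.1 from Agilent read the scans, per the submitters' processing notes and the file headers. The deposited intensity values are its processed signal (background-subtracted and spatially detrended within each array, not normalized between arrays) and the median pixel signals of spot and local background. The headers record multiplicative detrending on 4 arrays, not on MC-LR replicate 1 or control replicate 2. How the authors made the deposited log2 table (17220 piRNA probes, column medians 5.20 to 5.23) is unknown here. Its columns correlated with their own arrays' scanner values at r of at least 0.999 across the well-detected probes.

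Log2 processed signals were scaled by the median of unflagged probes well above background throughout, the scale of the selection rule. Probes well above background and unflagged on at least 3 arrays were tested over all arrays with limma 3.58.1 in R 4.3.3 (two-sided, no covariates, adjusted p threshold 0.05). Spots with outlier flags and control spots were left out, so a flagged spot's probe was fitted on the remaining arrays. The script was tested on simulated data with independent noise and no slide or scan day effects. The changes there were larger than those of most members.

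The members, lists and alternatives were chosen with earlier results of these data known. Members named singly were the 10 with the largest difference, the 5 with the highest control mean, the 3 with the widest gap, and 3 on each side of the limit. Identifiers were limited to the first 2. Alternatives were other scalings, the deposited table, unsubtracted signals, other filters and limits, blocks by replicate number, slide or scan day, another variance model, and leaving out each array. The number of arrays limits the precision.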

Additional observations from a re-analysis of the deposited data

How the results depend on the processing

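The number of probes that met the rule, 563, stayed within 1.5 times under 13 of 17 alternatives, with 392 to 767 on leaving out 1 array. It was 1375 without scaling, 278 on unsubtracted median signals, 1362 with probes well above background on at least 3 arrays, and 358 with a least difference of 1.2. Leaving out 1 array asks separation of fewer arrays, which is easier to meet. The rule could then take 10303 to 12310 probes, against 10289 with all arrays. The median difference of the 563 members, 1.30, was 1.72 without scaling, 0.95 on unsubtracted signals and 1.66 within the slide of replicate 1. On leaving out 1 array it was 1.09 to 1.50. Each member described singly kept its direction in all 22 alternatives run for it, which the choice by large differences largely ensured.

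The 644 limma calls upward, of which 266 were members, changed most. The main fit tested 16064 probes, as did the other fits unless stated. The calls were 1280 and 437 with the 75th percentile of the well-detected probes, 306 and 138 with that of all probes, and 3742 and 562 without scaling. They were 323 and 162 in the authors' table and 6 and 5 on unsubtracted signals. Quantile normalization gave 688 and 485 and the stricter filter 586 and 452, each among 10489 tested probes. A trended, robust variance gave 866 and 400. Keeping flagged spots gave 480 and 204, and scan day as a block gave 459 and 180. These 5 totals stayed within 1.5 times of 644, though the first 2 came from fewer tested probes. With a replicate block the numbers were 1221 and 441, and with slide as a block 3347 and 563, a fit that rests on replicates 1 and 3. Within scan day 1 there were 0 and 0 (1762 higher at an unadjusted p under 0.05, by limma), and within scan day 2 there were 129 and 24, with the lone array of a group taken to vary like the pair. Leaving out 1 array gave 0 to 801 and 0 to 411, among 14510 to 15929 tested probes. Why the calls moved was not tested. Same-numbered arrays deviated together at r = 0.28, 0.004 and 0.35 for replicates 1, 2 and 3. Those of replicates 1 and 3 shared a slide. Differently numbered arrays gave r of -0.44 to 0.17. The main fit did not take the numbers to pair the animals, and fits with replicate or slide as a block are given above. On control replicate 2, 261 of the 563 members lay within 2-fold of the dimmest spot flagged well above background. The part of this in the results was not tested.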

Other observations

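The 3 differences between same-numbered MC-LR and control arrays share no array, and were set against each other across the 563 members as a description. The replicate 1 and replicate 3 differences correlated at r = 0.69, while the replicate 2 difference correlated with them at 0.08 and 0.07. Over the 10289 probes from which the members were drawn, the same correlations were 0.86, 0.41 and 0.45. The selection narrows the range of the differences, and the 2 arrays of the replicate 1 difference shared a slide, as did those of replicate 3.

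Of the 200 probes with the highest control mean, which were left out of the selection, 36 had every MC-LR value above every control value, and 2 of these also differed by at least 1.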
